A study of Saccharomyces cerevisiae with 10 samples.

Results

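ROX1 and 9 genes of the hypoxic response (UPC2, ANB1, HEM13, AAC3, DAN1, TIR1, TIR2, TIR3 and TIR4) were followed through all deposited RNA-seq comparisons of budding yeast that lacked or overexpressed JHD2, the gene of a histone H3 lysine 4 demethylase. They are 10 of 7041 annotated features and were found by gene name in every table. They were chosen by measured values, since ROX1 was lower in jhd2Δ than in WT, and TIR2 was lower on JHD2 overexpression than with the empty vector. Those differences are therefore given below as a description, with no p-value and nothing read from how many pass the threshold, for all 10 genes in YAD and in the overexpression comparisons and for ROX1 in every jhd2Δ comparison.

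All cultures were in the BY4742 background and grew in synthetic media. The jhd2Δ and WT strains were prototrophic, and the OE and EV strains lacked LEU2 and carried it on their plasmids. jhd2Δ, in which a hygromycin marker replaces JHD2, was compared with WT in YAD (ammonium and glucose), in YGD (glutamate and glucose), with 3 replicate cultures per group in each, and in YAR (ammonium and raffinose), with 2 per group. FLAG-tagged JHD2 overexpression (OE), driven by the constitutive ADH1 promoter on a high-copy plasmid, was compared with the empty vector (EV) in YAR with 3 cultures per group, and in YAD through the authors' group values alone. The same OE and EV replicate values were deposited for YAR and for YAD, so their medium is uncertain, and they are called YAR below. The labels give jhd2Δ as Mat a in all 3 media, WT as Mat alpha in YAD and YGD but Mat a in YAR, and all OE and EV cultures as Mat alpha, whereas the study's strain list gives both the WT and the jhd2Δ strain as MATα. No label names a change in oxygen supply.

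Budding yeast reads oxygen through heme and sterols. With oxygen present, heme lets the activator Hap1 switch on ROX1, whose product, an HMG-box protein, binds upstream of hypoxic genes and represses them together with Mot3 and the corepressor Tup1-Cyc8. When sterols run low, the zinc-cluster activator Upc2 and its paralog Ecm22 bind sterol response elements and switch on genes of sterol synthesis and uptake, and Upc2 also acts on the DAN and TIR genes of anaerobic wall mannoproteins. Many hypoxic genes encode the low-oxygen form of a protein that has an aerobic counterpart, as ANB1 does for the translation factor eIF5A (HYP2) and AAC3 for the mitochondrial ADP/ATP carrier (PET9), while HEM13 encodes coproporphyrinogen oxidase, an oxygen-using enzyme of heme synthesis.

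The known Rox1 core, ATTGTTC, was looked for on both strands of the 600 bases before each start codon in the RefSeq R64 yeast genome, together with the sterol response element TCGTATA and the anaerobic element AR1, TCGTTNAG. The core stood before 5 of the 10 genes with 8 matches, against 13.9% of all 6002 nuclear protein-coding genes. The sterol response element stood before DAN1, TIR1 and TIR3 (8.58% of all genes), and AR1 before UPC2, DAN1 and TIR4 (5.95% of all genes). Neither ROX1 nor AAC3 held any of these 3 strings, which says only that those letters are absent from those windows. No 2 of the 3 motifs overlapped in the stretches shown, which were chosen because the results below turn on these genes. They are written along the coding strand of each gene, with matches in capitals (a core on the opposite strand reads GAACAAT).
ANB1: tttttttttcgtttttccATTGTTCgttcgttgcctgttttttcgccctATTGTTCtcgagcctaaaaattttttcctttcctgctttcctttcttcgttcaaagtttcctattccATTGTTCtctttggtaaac
HEM13: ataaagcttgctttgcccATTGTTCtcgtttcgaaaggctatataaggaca
TIR2: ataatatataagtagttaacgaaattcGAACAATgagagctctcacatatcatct
TIR3: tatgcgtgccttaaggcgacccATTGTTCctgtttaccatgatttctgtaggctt
DAN1: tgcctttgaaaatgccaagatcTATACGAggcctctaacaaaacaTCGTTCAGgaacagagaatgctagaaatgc
TIR4: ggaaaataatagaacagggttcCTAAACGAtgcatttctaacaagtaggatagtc

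The ANB1 stretch (chrX:525577-525711, minus strand) held 3 cores, at 312, 281 and 214 bases before the start codon. HEM13 (chrIV:546442-546492, plus strand) held 1 core at 182 bases, TIR2 (chrXV:347026-347080, minus strand) 1 on the opposite strand at 103 bases, and TIR3 (chrIX:333462-333516, plus strand) 1 at 243 bases beside another at 25 bases that is not shown. DAN1 (chrX:709858-709932, minus strand) held a sterol response element on the opposite strand at 203 bases, followed by AR1 at 180 bases. TIR4 (chrXV:344090-344144, plus strand) held AR1 on the opposite strand at 223 bases. The TIR2 and TIR4 genes are convergent neighbours on chromosome XV, 396 bases apart. TIR2 is also divergent from AUS1, which encodes a sterol importer, with 2728 bases between them. ANB1 is divergent from CYC1, which encodes iso-1-cytochrome c, with 953 bases between them. Also divergent are AAC3 and RPL19A, 721 bases apart, TIR1 and YER010C, 1909 bases apart, and HEM13 and NRG1, 3272 bases apart. None of the 10 genes overlaps another annotated gene.

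The libraries were checked against their labels first. JHD2 stood at 0 to 0.0486 FPKM (fragments per kilobase of transcript, normalised for library depth) in jhd2Δ libraries, against 3.97 to 17.5 FPKM in WT libraries, and at 1503 to 2213 FPKM in OE libraries, against 27.6 to 35.8 FPKM in EV libraries. The summed level of 7 a-specific mating-type markers was 15827 to 18334 FPKM in jhd2Δ against 46.5 to 145 FPKM in WT in YAD, and 6729 to 10466 FPKM in jhd2Δ against 66.1 to 221 FPKM in WT in YGD, where MFA1 was at 0 in all WT libraries. Mating type and the deletion therefore cannot be told apart in YAD and YGD. In YAR both strains carried a-specific markers, at 5624 to 5666 FPKM in jhd2Δ and 6027 to 6304 FPKM in WT. Of the OE and EV libraries, labelled Mat alpha, all but EV replicate 3 held more a-specific than alpha-specific marker RNA: a-specific markers summed to 751 to 2756 FPKM in OE and 434 to 6022 FPKM in EV, and 5 alpha-specific markers to 110 to 585 FPKM in OE and 74.7 to 1572 FPKM in EV. Replicate 3 of both groups was the lowest for 7 of 7 a-specific markers, and EV replicate 3 was the highest for 5 of 5 alpha-specific markers. The part of mating type in the values below was not tested. WT replicate 3 in YGD took a library scale of 1.59, against 0.837 to 1.17 in the other libraries.

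The levels of HEM13, ANB1, TIR1, DAN1 and UPC2 in WT differed among the media, as the plot of levels by library shows, while ROX1 stood at 5.64 ± 0.75 FPKM in YAD, 4.404 ± 3.6 FPKM in YGD and 6.71 ± 1.6 FPKM in YAR, within its spread. The tables were normalised separately, so levels set across media are approximate. In WT, HEM13 was the highest of the 10 genes in each medium, at 119 ± 18 FPKM in YAD (SD, n = 3), 259 ± 116 FPKM in YGD (n = 3) and 61.2 ± 11 FPKM in YAR (n = 2). ANB1 came next in YAD at 61.9 ± 15 FPKM and in YGD at 135 ± 88 FPKM, but stood at 2.47 ± 0.81 FPKM in YAR. TIR1, which encodes a cell wall mannoprotein of cold- and low-oxygen-grown cells, stood at 1.405 ± 0.84 FPKM in YAD, 83.4 ± 43 FPKM in YGD and 0.105 ± 0.15 FPKM in YAR. DAN1, another wall mannoprotein, followed with 0.751 ± 0.44, 12.5 ± 3.7 and 0.254 ± 0.36 FPKM in the same media. The activator UPC2 was highest in YAR, at 2.79 ± 0.20, 3.47 ± 1.7 and 9.43 ± 0.76 FPKM in the same order. In YGD, DAN1 and TIR2 (11.7 ± 1.7 FPKM) did not differ beyond their spread, and neither did ROX1, UPC2 and TIR4.

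**Figure D1:**
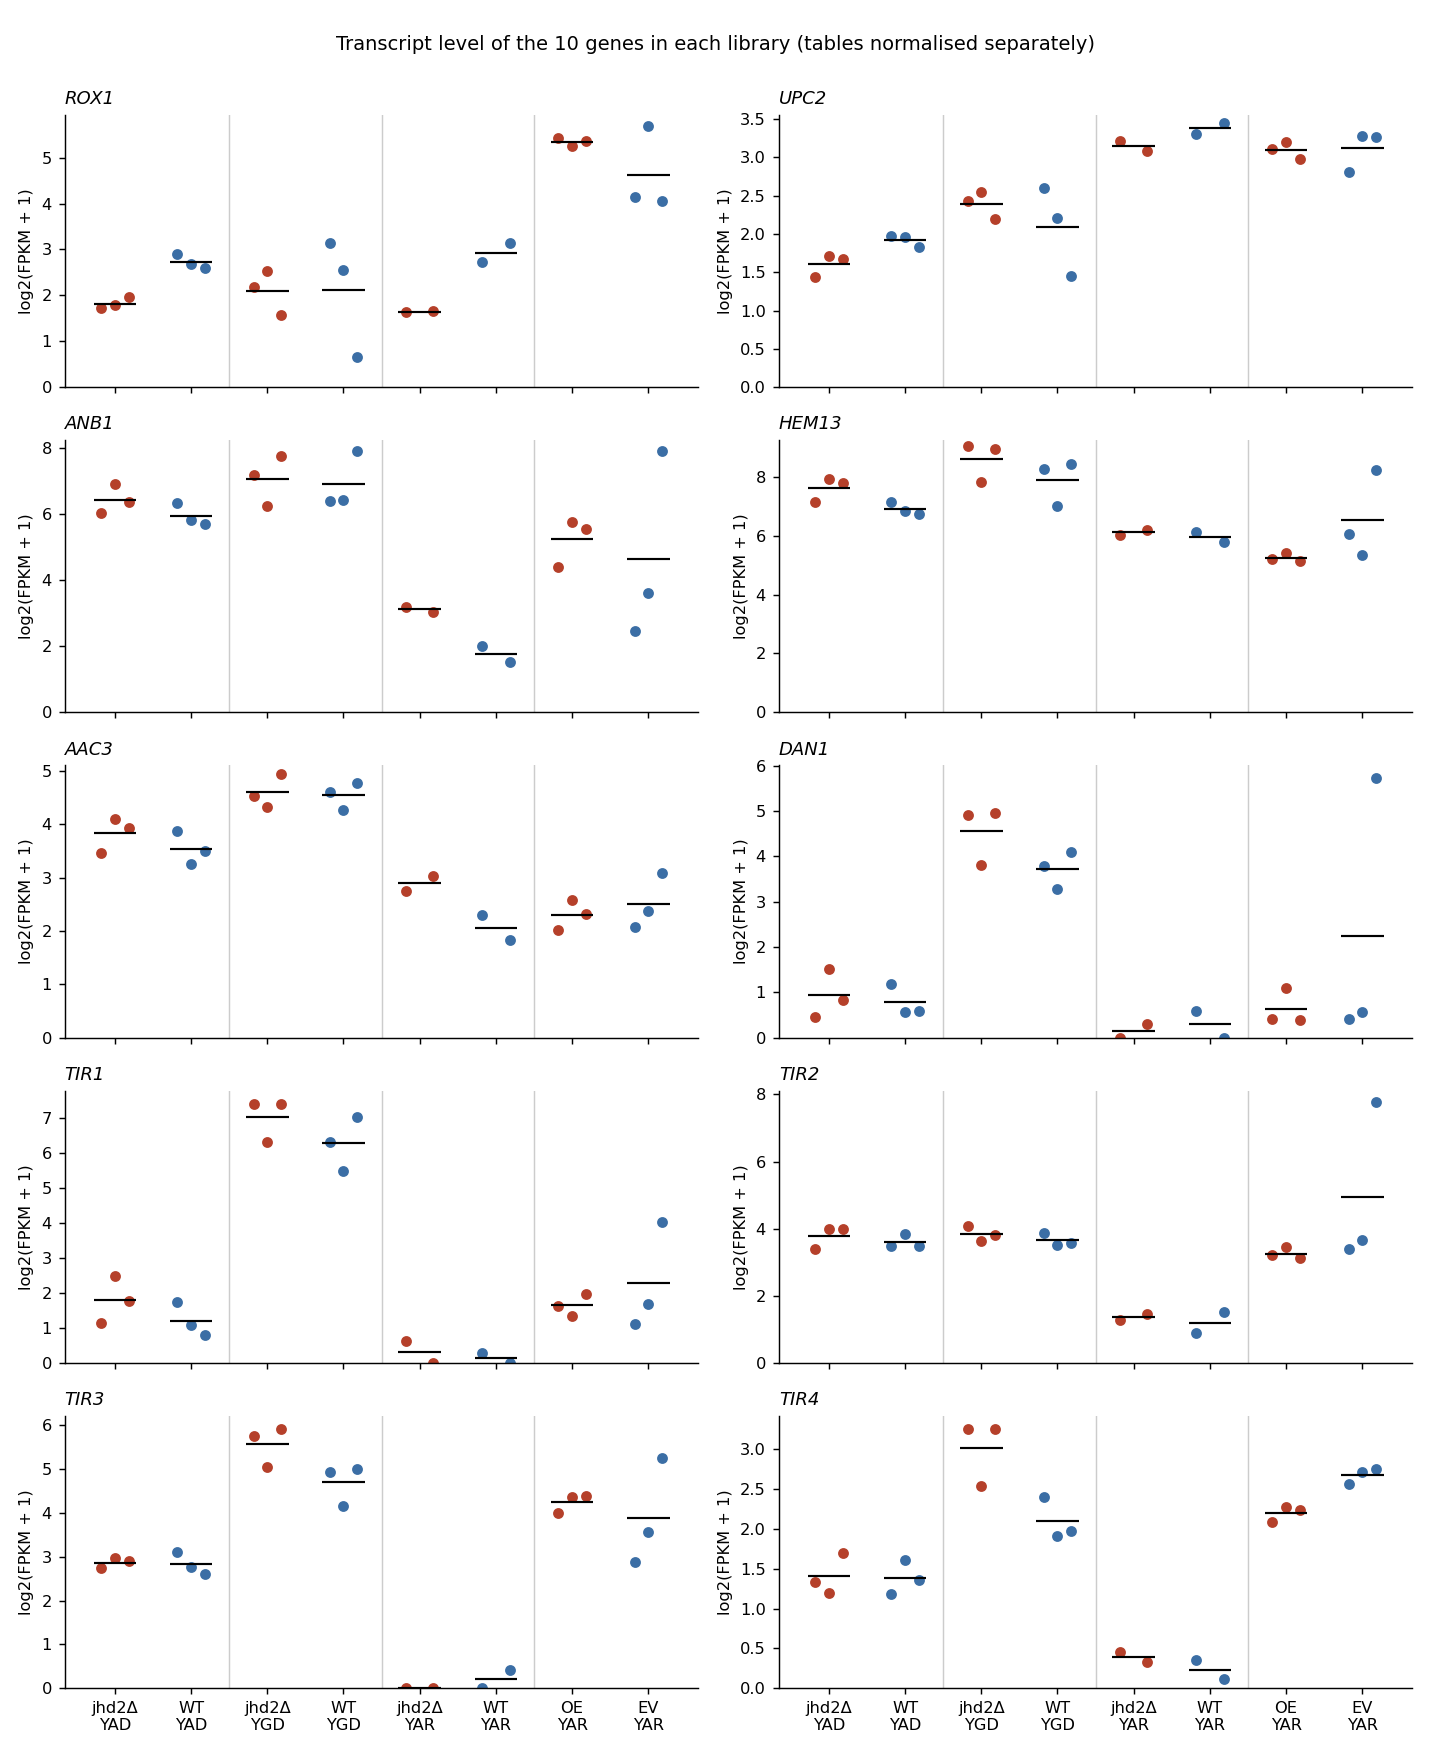
Transcript level, as log2(FPKM + 1), of the 10 genes in each of the 22 libraries (points) with group means (bars), for jhd2Δ and WT in YAD, YGD and YAR and for OE and EV in YAR. EV replicate 3 stands above the other libraries of its table for ANB1, HEM13, DAN1, TIR1, TIR2 and TIR3, and ROX1 is lower in all jhd2Δ libraries than in all WT libraries in YAD and in YAR.

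ROX1, the repressor, was lower in jhd2Δ than in WT in YAD, at 2.29, 2.44 and 2.88 FPKM in jhd2Δ libraries and 6.49, 5.39 and 5.05 FPKM in WT libraries. It was lower in YAR too, at 2.09 and 2.16 FPKM in jhd2Δ and 5.59 and 7.82 FPKM in WT. The groups did not overlap in either medium, and the fitted log2 differences were -0.86 (SE 0.11) in YAD and -1.29 (SE 0.33) in YAR. In YGD the groups overlapped, at 3.52, 4.79 and 1.95 FPKM in jhd2Δ and 7.78, 4.85 and 0.574 FPKM in WT, with a log2 difference of -0.12 (SE 0.52). The lowest of these values, WT replicate 3, lies under every jhd2Δ value, and without that library the difference was -0.71 (range over the 6 libraries left out in turn -0.71 to 0.32).

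The authors' group values gave ROX1 another direction. They put it at 25.3 FPKM in jhd2Δ and 18.1 FPKM in WT in YAD, and at 20.7 FPKM in jhd2Δ and 9.33 FPKM in WT in YGD. In YAD the jhd2Δ group value was 9.96 times the mean of the replicate values and the WT group value 3.20 times, larger than for 99.9% and 99.7% of features, where the median feature had 1.02 times in jhd2Δ and 1.07 times in WT. In YGD the ROX1 group values were 6.04 times the replicate mean in jhd2Δ and 2.12 times in WT. In the overexpression table they were 0.708 times in OE and 0.701 times in EV, where the median feature had 0.556 times in OE and 0.729 times in EV. The direction of the ROX1 difference in YAD thus rests on which of the 2 deposited kinds of value is used, and the plot of ROX1 replicate and group values shows both. For jhd2Δ and WT in YAR the group values were not used, as their headers name no group, so ROX1 was not compared between the kinds of value there.

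**Figure D2:**
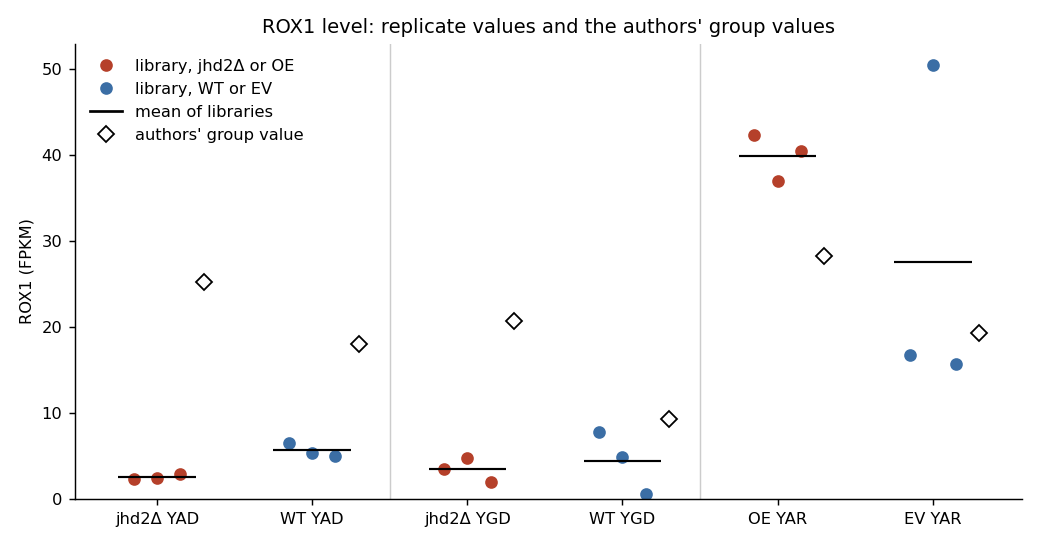
ROX1 level in FPKM in each library (points), the mean of the libraries (bars) and the authors' group value (open diamonds) for jhd2Δ and WT in YAD and YGD and for OE and EV in YAR. The replicate means are 2.54 FPKM in jhd2Δ and 5.64 FPKM in WT in YAD, while the group values are 25.3 FPKM in jhd2Δ and 18.1 FPKM in WT.

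The corepressor genes TUP1 and CYC8, which act with ROX1, also differed between the 2 kinds of value. In the replicate values TUP1 fell in jhd2Δ in YAD (log2 -0.95, SE 0.12, limma adjusted p = 0.00708), at 9.21, 10.5 and 10.9 FPKM in jhd2Δ and 23.1, 23.4 and 18.2 FPKM in WT, and this call held under 12 of 12 alternatives. CYC8 fell as well (log2 -0.57, SE 0.10, adjusted p = 0.0193), although its adjusted p ran up to 0.0785 and the call was lost when any library other than WT replicate 3 was left out, with log2 values of -0.61 to -0.54. The authors' group values for YAD were 37.4 FPKM in jhd2Δ and 36.5 FPKM in WT for TUP1, and 10.5 FPKM in jhd2Δ and 9.19 FPKM in WT for CYC8.

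ROX1, TUP1 and CYC8 share long runs of the glutamine codons CAA and CAG, a feature that was chosen after the values were seen. The longest run of ROX1 is 7 codons, and 90 of 6002 genes have a run at least that long. It lies within the stretch chrXVI:679972-680040 (plus strand, RefSeq R64) of the ROX1 coding sequence. That stretch is shown with the run in capitals because genes are grouped below by the length of this run.
ROX1: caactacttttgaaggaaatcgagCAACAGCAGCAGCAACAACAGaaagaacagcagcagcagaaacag

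TUP1 has a run of 7 codons, CYC8 of 31 and UPC2 of 5, while the other 8 of the 10 genes have 1 or 2. Over all genes tested, the median log2 difference between jhd2Δ and WT in YAD was 0.02 for genes with a longest run of 0 to 2 codons (n = 5098), -0.11 for 3 to 4 (n = 400), -0.29 for 5 to 7 (n = 70) and -0.57 for 8 or more (n = 61). In YAR the medians of the same classes were 0.00, -0.16, -0.29 and -0.49. In YGD they lay between -0.05 and 0.01, and between OE and EV in YAR between -0.05 and 0.04. Within its class of 5 to 7 codons ROX1 was not the lowest gene, since 9 of 70 were lower in YAD and 3 of 73 in YAR. The ratio of the group value to the replicate mean moved with the same classes: in YAD its median was 1.01, 1.23, 1.63 and 2.32 in jhd2Δ, and 1.06, 1.16, 1.32 and 1.63 in WT, from the shortest to the longest runs. The part of codon runs in the ROX1 difference was not tested.

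**Figure D3:**
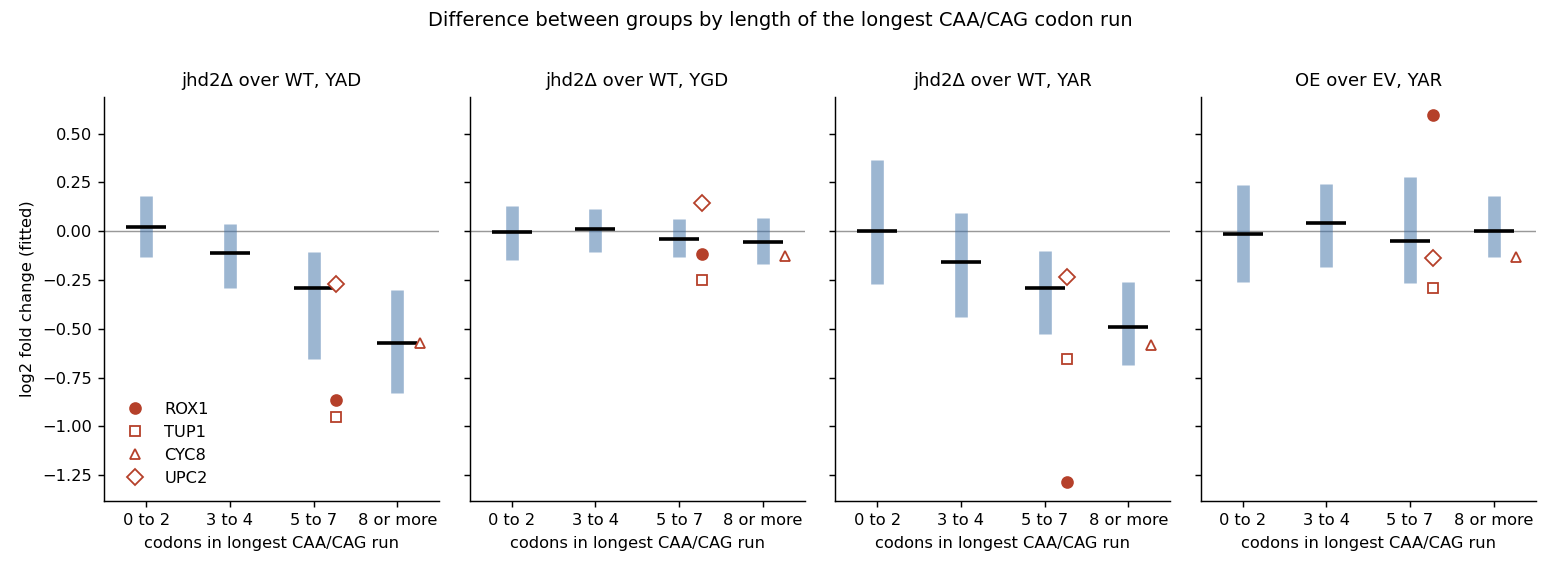
Fitted log2 fold change of jhd2Δ over WT in YAD, YGD and YAR and of OE over EV in YAR, by the longest run of CAA or CAG codons in a gene; black bars are medians and blue bars the interquartile range. Medians in YAD step down from 0.02 to -0.57 as runs lengthen, and ROX1 (filled point) lies below the median of its class at -0.86 in YAD and -1.29 in YAR.

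UPC2, the sterol-sensing activator, showed no change past the test. In YAR it stood at 8.25 and 7.49 FPKM in jhd2Δ and 8.89 and 9.97 FPKM in WT, groups that did not overlap, with a log2 difference of -0.23 (SE 0.23, limma adjusted p = 0.506). In YGD it stood at 4.38, 4.86 and 3.59 FPKM in jhd2Δ and 5.05, 3.61 and 1.74 FPKM in WT (log2 0.15, SE 0.17, adjusted p = 0.840). In YAD the values were 1.72, 2.27 and 2.19 FPKM in jhd2Δ and 2.91, 2.89 and 2.55 FPKM in WT, again without overlap (log2 -0.27, SE 0.12). Its paralog ECM22 had log2 differences of -0.16 in YAD, -0.02 in YGD, -0.38 in YAR and -0.30 in OE, and none passed the test (adjusted p 0.136 to 0.982), although in YAR it passed when libraries were scaled to coding features (log2 -0.68, adjusted p = 0.0140), 1 of 10 alternatives. Of the other regulators, MOT3, HAP1, MGA2 and SPT23, none passed it in any comparison, and MOT3 was under the minimum level in YAD and YGD. Only TUP1 of the 7 regulators passed in YAR, where it fell (log2 -0.66, SE 0.20, adjusted p = 0.0264). That call was lost in 6 of 10 alternatives, with log2 values of -0.57 without jhd2Δ replicate 1, -0.44 without WT replicate 1 and -0.88 without WT replicate 2.

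In the replicate values for YAD, the hypoxic genes tested other than the regulators ROX1 and UPC2 had log2 differences above 0 between jhd2Δ and WT. Of the 9 genes with a mean of at least 1 FPKM, 7 were above 0 and ROX1 and UPC2 below, with a median of 0.23 over the 9, beside 0.01 for all features. HEM13 stood at 140, 241 and 219 FPKM in jhd2Δ and 139, 112 and 104 FPKM in WT, a log2 difference of 0.78 (SE 0.17) with the lowest jhd2Δ library just above the highest WT library. ANB1 stood at 63.99, 119 and 80.7 FPKM in jhd2Δ and 79.0, 55.6 and 51.0 FPKM in WT, and its groups overlapped (log2 0.54, SE 0.22). AAC3 stood at 10.1, 16.2 and 14.3 FPKM in jhd2Δ and 13.6, 8.48 and 10.3 FPKM in WT, which overlapped too (log2 0.35, SE 0.16). The wall mannoprotein genes were low and their groups overlapped: TIR1 had 1.23 to 4.56 FPKM in jhd2Δ and 0.747 to 2.36 FPKM in WT (log2 0.62, SE 0.35), TIR2 9.45 to 14.8 FPKM in jhd2Δ and 10.3 to 13.3 FPKM in WT (log2 0.23, SE 0.17), TIR3 and TIR4 differed by 0.09 and 0.05, and DAN1 was under the minimum.

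In jhd2Δ replicate 1 the hypoxic genes stood lower than in the other jhd2Δ libraries, at 0.694 times their mean for HEM13, 0.731 times for ANB1 and 0.766 times for AAC3 (scaled FPKM + 1), and WT replicate 1 was the highest WT library for the same genes. With a Benjamini-Hochberg adjusted p under 0.05 and a fold over 1.4 as the threshold, 2 of 9 genes (ROX1 and HEM13) were past it, beside 5.72% of all 6185 features. As the genes were chosen with this comparison in view, nothing is read from that count. Of 6 further hypoxic genes (COX5B, CYC7, HMG2, OLE1, SUT1 and FET4), 1 of 5 tested passed: COX5B, the low-oxygen form of a cytochrome oxidase subunit, rose with 105, 126 and 119 FPKM in jhd2Δ and 84.1, 81.3 and 85.8 FPKM in WT (log2 0.53, SE 0.07, limma adjusted p = 0.00844). With FPKM as deposited its fold fell under 1.4 (log2 0.47), as it did when libraries were scaled to the sum of coding features (log2 0.39).

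In YGD, the wall mannoprotein genes DAN1, TIR1, TIR3 and TIR4 stood at higher levels in jhd2Δ than in WT, but none passed the test. TIR3 had 53.0, 32.0 and 58.9 FPKM in jhd2Δ and 29.5, 16.7 and 30.9 FPKM in WT, groups that did not overlap, with a log2 difference of 0.65 (SE 0.47, limma adjusted p = 0.803). TIR4 had 8.52, 4.80 and 8.52 FPKM in jhd2Δ and 4.26, 2.76 and 2.91 FPKM in WT, also without overlap, with a log2 difference of 0.73 (SE 0.30, adjusted p = 0.728, range over alternatives 0.280 to 0.999). For TIR1 and DAN1 the groups overlapped. TIR1 had 165, 78.2 and 167 FPKM in jhd2Δ and 77.6, 43.3 and 129 FPKM in WT (log2 0.53, SE 0.65, adjusted p = 0.848), and DAN1 had 29.0, 13.0 and 29.9 FPKM in jhd2Δ and 12.7, 8.76 and 16.1 FPKM in WT (log2 0.61, SE 0.52, adjusted p = 0.813). Replicate 2 was the lowest library of its group for all 4 genes in jhd2Δ and in WT.

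HEM13, ANB1, AAC3 and TIR2 overlapped between the groups in YGD. HEM13 had 526, 223 and 490 FPKM in jhd2Δ and 306, 127 and 344 FPKM in WT (log2 0.47, SE 0.64, adjusted p = 0.865). ANB1 had 143, 74.0 and 212 FPKM in jhd2Δ and 83.0, 84.6 and 236 FPKM in WT (log2 -0.08, SE 0.75, adjusted p = 0.988), and its sign turned when libraries were left unscaled (log2 0.15). AAC3 and TIR2 had log2 differences of -0.18 (SE 0.38) and -0.03 (SE 0.25), and their signs turned in the same way. WT replicate 3 stood above the other WT libraries for these genes, by 5.00 times for ANB1, 3.78 times for TIR1, 2.83 times for HEM13 and 2.53 times for DAN1 (scaled FPKM + 1), and at 0.289 times for ROX1. Without it the log2 differences were 0.70 for ANB1, 1.198 for TIR1, 1.02 for HEM13 and 1.07 for DAN1, and still none passed the test. By limma 0 of 9 genes other than ROX1 passed in YGD, beside 0.338% of all 6213 features, and 1 of the 9 (TIR4) had an unadjusted p under 0.05, beside 426 of the 6213 features. None of the tested genes in the lists of further hypoxic genes, wall and sterol import genes, regulators and aerobic counterparts passed either, and of 24 seripauperin genes, a related family of small wall proteins, 8 were tested and 0 passed.

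In YAR, ANB1 rose in jhd2Δ. It stood at 8.15 and 7.20 FPKM in jhd2Δ and 3.04 and 1.89 FPKM in WT, with no overlap, and the log2 difference was 1.34 (SE 0.32), a 2.53-fold change on the scale of FPKM + 1, with a limma adjusted p = 0.00756. The low values of this table are multiples of a read step (90.6 to 96.4% of them whole within 0.06), which put the ANB1 values at about 14 and 12 reads in jhd2Δ and 7 and 5 reads in WT. The adjusted p ran from 0.00598 to 0.198 over 10 alternatives and was under 0.05 in 7. The call was lost without WT replicate 1 (log2 1.58, adjusted p = 0.0689), without WT replicate 2 (log2 1.10, adjusted p = 0.198) and with replicate numbers as a block (adjusted p = 0.0729). AAC3 did not overlap between the groups either, at 5.68 and 7.21 FPKM in jhd2Δ and 3.91 and 2.56 FPKM in WT, but its log2 difference of 0.82 (SE 0.31) missed the threshold (adjusted p = 0.0705). The same read step put AAC3 at 26 and 32 reads in jhd2Δ and 24 and 18 reads in WT.

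The remaining genes were close between the strains in YAR or too low to test. HEM13 had 64.5 and 72.1 FPKM in jhd2Δ and 68.7 and 53.7 FPKM in WT (log2 0.16, SE 0.18, adjusted p = 0.562), and TIR2 had 1.43 and 1.76 FPKM in jhd2Δ and 0.851 and 1.85 FPKM in WT (log2 0.17, SE 0.49, adjusted p = 0.832). The groups overlapped for both genes. DAN1, TIR1, TIR3 and TIR4 were under the minimum, with at most 3 reads in any library, so a difference was not detectable at this depth. Of the 5 genes tested other than ROX1, 1 passed, a share near the 22.4% of all 5846 features that did. How features divided in YAR depended on scaling: 805 were called higher and 503 lower with median-of-ratio scales, against 406 higher and 1527 lower when libraries were scaled to the sum of coding features, which moved the median of all features by -0.29, and ANB1 passed under both.

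Most aerobic counterparts of the hypoxic genes rose in jhd2Δ in YAR. Of 5 such genes, 4 passed the test, all upward, beside 805 of 5846 features that passed upward, and the list's median log2 difference was 0.93, beside -0.01 for all features. PET9, the major ADP/ATP carrier and counterpart of AAC3, stood at 2941 and 3728 FPKM in jhd2Δ and 1140 and 829 FPKM in WT (log2 1.77, SE 0.24, limma adjusted p = 0.000153). HYP2, the aerobic eIF5A gene and counterpart of ANB1, stood at 1197 and 1219 FPKM in jhd2Δ and 736 and 543 FPKM in WT (log2 0.93, SE 0.22, adjusted p = 0.00870). For both genes every jhd2Δ library was above every WT library. CYC1 and HMG1, the genes of iso-1-cytochrome c and of an HMG-CoA reductase of sterol synthesis, rose by 0.96 and 0.79 on the log2 scale (adjusted p = 0.00646 and 0.00775), and COX5A did not pass (log2 0.09). Without WT replicate 2 all 4 calls were lost (log2 1.54 for PET9, 0.72 for HYP2, 0.83 for CYC1 and 0.62 for HMG1), and without WT replicate 1 those of HYP2 (1.15), CYC1 (1.07) and HMG1 (0.96) were lost. With replicate numbers as a block all 4 were lost too (adjusted p = 0.0561 for PET9, 0.0874 for HYP2, 0.0754 for CYC1 and 0.0807 for HMG1), as was HMG1 with scaling to coding features (log2 0.49, adjusted p = 0.0570). In the pairs HYP2 with ANB1 and PET9 with AAC3, every jhd2Δ library was thus above every WT library for both forms. With 2 libraries per group, and the share of all features so separated not counted, nothing is read from this.

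Of the other lists in YAR, SUT1, which encodes a transcription factor of sterol uptake, fell by 0.82 on the log2 scale (7.46 and 5.83 FPKM in jhd2Δ and 13.3 and 11.6 FPKM in WT, limma adjusted p = 0.0191) and was 1 of 6 further hypoxic genes tested. Its call was lost without jhd2Δ replicate 2 (-0.67), WT replicate 1 (-0.74) or WT replicate 2 (-0.91). PAU23, also known as DAN2 and so both a wall gene and a seripauperin, rose by 1.13 on the log2 scale (4.58 and 4.72 FPKM in jhd2Δ and 2.05 and 1.19 FPKM in WT, adjusted p = 0.0431). It was 1 of 4 tested genes of wall proteins and sterol import and 1 of 5 tested seripauperins that passed, and its call was lost whenever a library was left out (log2 0.89 to 1.36). The counts of 1 of 6, 1 of 4 and 1 of 5 are near the 22.4% of all features that passed in YAR.

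The difference between the jhd2Δ effect in YAR and that in YGD was tested as a contrast of both effects in one limma model, and the plot of both effects shows them side by side. Of the 9 genes other than ROX1, 0 passed, beside 7.3% of all 6223 features, and 0 had an unadjusted p under 0.05, beside 1617 of those features. The contrast was 1.42 (SE 1.11, adjusted p = 0.468) for ANB1 and 1.00 (SE 0.54, adjusted p = 0.283) for AAC3 on the log2 scale, while the wall genes DAN1, TIR1, TIR3 and TIR4 had -0.76, -0.35, -0.86 and -0.57. The standard errors in YGD leave the effect of the medium on ANB1 unresolved, since 2 standard errors around its contrast span both directions. Among the aerobic counterparts PET9 (log2 2.29, SE 0.49, adjusted p = 0.0296) and CYC1 (log2 1.14, SE 0.21, adjusted p = 0.0161) passed, and among further hypoxic genes SUT1 did (log2 -0.98, SE 0.23, adjusted p = 0.0357), while HYP2 stood at the threshold (log2 1.24, SE 0.32, adjusted p = 0.0503). WT was labelled with another mating type in YGD than in YAR, so medium and mating type cannot be told apart in this contrast.

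**Figure D4:**
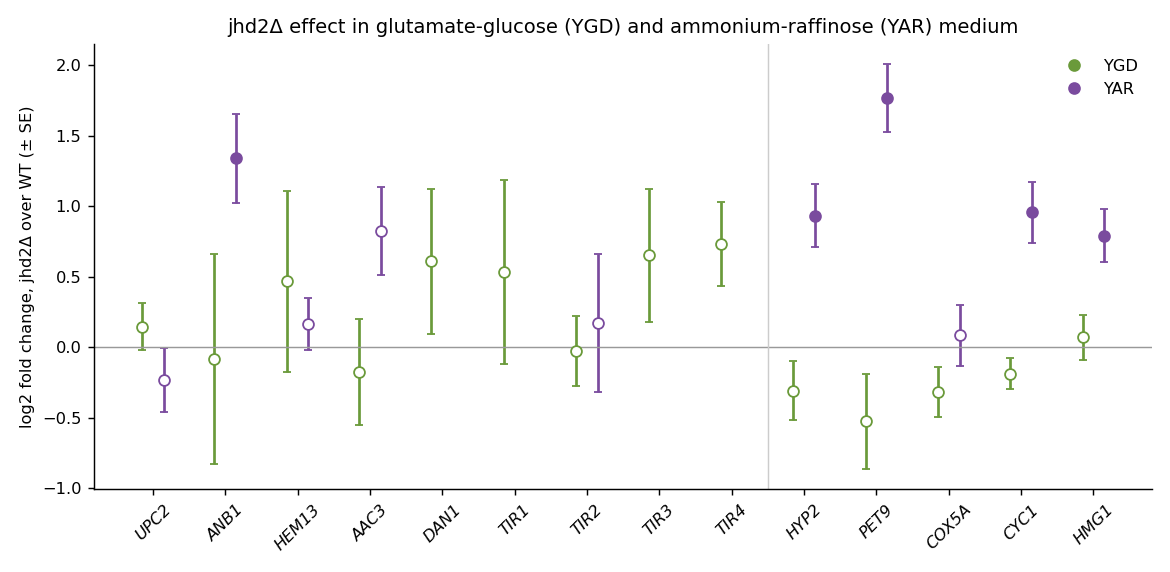
Log2 fold change of jhd2Δ over WT (± SE) in YGD and YAR for the hypoxic genes other than ROX1 (left of the line) and for 5 aerobic counterparts (right); filled points passed the test and genes under the minimum level are not drawn. In YAR, ANB1 at 1.34 and HYP2, PET9, CYC1 and HMG1 at 0.79 to 1.77 are filled, and no point in YGD is.

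These genes were chosen by the lower TIR2 level on JHD2 overexpression, described here in YAR. The authors' group values put TIR2 at 3.48 FPKM in OE and 14.4 FPKM in EV. That EV value was 0.182 times the mean of its replicate values, where the median feature had 0.729 times. What set the 2 kinds of value apart was not tested. In the replicate values the lower TIR2 mean rested on a single library. TIR2 stood at 8.31, 9.96 and 7.67 FPKM in OE libraries, against 9.54, 11.6 and 216 FPKM in EV libraries, so all but EV replicate 3 lay between 7.67 and 11.6 FPKM. DAN1 had the same shape, with 0.341, 1.15 and 0.317 FPKM in OE and 0.324, 0.492 and 51.5 FPKM in EV. ANB1 stood at 20.1, 53.4 and 45.2 FPKM in OE and 4.46, 11.1 and 240 FPKM in EV, and HEM13 at 35.7, 41.5 and 34.4 FPKM in OE and 65.6, 39.2 and 296 FPKM in EV. In each case EV replicate 3 was far above the other EV libraries, by 43.8 times for DAN1, 32.7 times for ANB1, 22.3 times for TIR2, 7.07 times for TIR1, 6.59 times for HEM13 and 4.70 times for TIR3 (scaled FPKM + 1). Over 5 times its group's other libraries were 5 of the 10 genes and 55 of all 6331 features, or 0.869%. The same library held the most alpha-specific and the fewest a-specific marker RNA of its group, as given above, and the part of that difference in its hypoxic genes was not tested. ROX1 stood at 42.3, 37.0 and 40.5 FPKM in OE and 16.7, 50.4 and 15.7 FPKM in EV, where replicate 2, not replicate 3, was the high one.

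**Figure D5:**
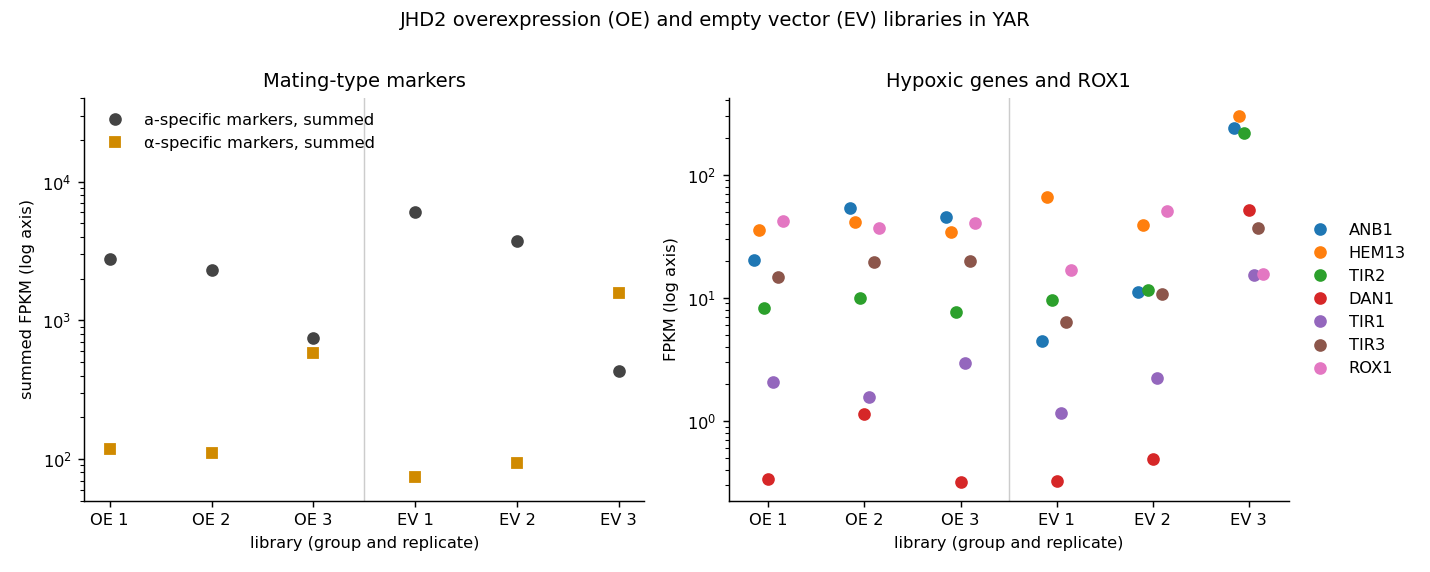
Summed FPKM of 7 a-specific and 5 alpha-specific markers (left) and FPKM of ROX1 and 6 hypoxic genes (right), both on log axes, in each OE and EV library in YAR. In EV replicate 3 alpha-specific markers sum to 1572 FPKM against 434 FPKM for a-specific ones, and ANB1, HEM13 and TIR2 all exceed 200 FPKM.

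The fitted log2 differences between OE and EV were -1.80 (SE 1.30) for TIR2, -1.69 (SE 1.49) for DAN1, -1.41 (SE 0.75) for HEM13, -0.73 (SE 0.77) for TIR1, -0.58 (SE 0.18) for TIR4, -0.32 (SE 0.34) for AAC3, -0.14 (SE 0.19) for UPC2, 0.23 (SE 0.63) for TIR3, 0.45 (SE 1.56) for ANB1 and 0.59 (SE 0.39) for ROX1. By limma 0 of 10 genes were past the threshold, beside 0.0158% of 6331 features, where JHD2 itself was the single feature called. As the genes were chosen with this comparison in view, nothing is read from counts of calls in it. Without EV replicate 2 the ROX1 difference was 1.08. TIR4 stood at 3.26, 3.82 and 3.72 FPKM in OE and 4.90, 5.57 and 5.70 FPKM in EV, groups that did not overlap. The share of all features without overlap was not counted, so nothing is read from this. Without replicate 3 of both groups, an alternative added after the data were seen, the mean of TIR2 was 9.14 FPKM in OE and 10.6 FPKM in EV (0.864-fold) and its groups overlapped. ANB1 then stood at 36.8 FPKM in OE and 7.78 FPKM in EV (4.73-fold) and TIR3 at 17.2 FPKM in OE and 8.53 FPKM in EV (2.02-fold). TIR4 was lower, at 3.54 FPKM in OE and 5.23 FPKM in EV (0.677-fold). ANB1, TIR3 and TIR4 had no overlap between 2 libraries per group, and the share of all features without overlap was not counted. HEM13 stood at 38.6 FPKM in OE and 52.4 FPKM in EV, and 0 of the 10 genes were called, beside 5 features in all.

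In YAD, overexpression could be described only by the authors' group values, which carry no replicate error. TIR2 stood at 6.13 FPKM in OE and 8.63 FPKM in EV, and TIR4 at 1.91 FPKM in OE and 3.17 FPKM in EV. These 2 of 9 genes were lower by over 1.4-fold, beside 6.65% of all 6238 features, and 0 were higher, beside 2.12%. As TIR2 was among the genes by its lower level on overexpression, and TIR4 was low, nothing is read from these counts. ROX1 had 23.7 FPKM in OE and 28.03 FPKM in EV, HEM13 had 120.0 FPKM in OE and 115 FPKM in EV, and ANB1 had 35.3 FPKM in OE and 27.3 FPKM in EV. The median ratio of all features was 0.918, and relative to it TIR4 alone was lower and ANB1 and TIR1 were higher by over 1.4-fold.

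The authors' group values also compared raffinose with glucose in EV cells. HEM13 stood at 44.9 FPKM in YAR and 127 FPKM in YAD, AAC3 at 2.24 FPKM in YAR and 8.60 FPKM in YAD, ROX1 at 17.99 FPKM in YAR and 31.4 FPKM in YAD, and ANB1 at 20.4 FPKM in YAR and 28.9 FPKM in YAD. These 4 of 10 genes were lower by over 1.4-fold in raffinose, beside 67% of all 6254 features, so lower values were the rule in this table, whose median ratio was 0.586. DAN1 (3.51 FPKM in YAR and 0.398 FPKM in YAD), TIR1 (1.21 FPKM in YAR and 0.817 FPKM in YAD) and TIR2 (13.4 FPKM in YAR and 9.26 FPKM in YAD) were higher by over 1.4-fold, 3 of 10 genes beside 7.05% of features. DAN1 and TIR1 reached the minimum of 1 FPKM only through their YAR values, so nothing is read from this count. With a minimum of 5 FPKM, 1 of 7 genes (TIR2) was higher and the same 4 were lower. EV replicate 3, called YAR here although its medium is uncertain, was the highest EV library for these 3 genes. The part of that library in these group values was not tested. Relative to the median ratio, HEM13 and AAC3 were lower and the same 3 genes higher.

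The genes were last compared by how their levels moved over all 22 libraries, each level taken as a log2 difference from the mean of the WT or EV group of its own table, among 6280 features. These correlations are given as a description, since libraries share strains and tables. HEM13 moved most closely with TIR1 (Pearson r = 0.900) and DAN1 (r = 0.897), DAN1 with TIR2 (r = 0.935) and ANB1 with AAC3 (r = 0.790). ROX1 ran against AAC3 (r = -0.758) and HEM13 (r = -0.660) and with UPC2 (r = 0.529). Without EV replicate 3 these values were 0.873, 0.902, 0.881, 0.796, -0.774, -0.700 and 0.610 in the same order. Over all 22 libraries, ROX1 had r from -0.534 (TIR1) to -0.123 (TIR3) with the remaining genes. The ROX1 and TIR2 differences by which the genes were chosen enter these correlations. The share of all features with r as low was not counted, so nothing is read from the ROX1 values. The 5 features most like ROX1 were RLM1 (r = 0.948), UME6 (0.944), DBF4 (0.944), MET4 (0.940) and STP1 (0.925), of which RLM1 has a CAA or CAG run of 6 codons UME6, DBF4 and STP1 have runs of 4 and MET4 has a run of 2. The 5 most like TIR2 were GSY1 (0.958), GLK1 (0.950), GLC3 (0.950), ATG42 (0.946) and PSK1 (0.941), and without EV replicate 3 these values were 0.892 to 0.928. GSY1 and GLC3 encode enzymes of glycogen synthesis and GLK1 encodes glucokinase.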

How the data were processed

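RNA was depleted of ribosomal RNA and sequenced as single-end reads from replicate cultures, and the processing notes name FastQC 0.10.1, TopHat2 2.0.12, Bowtie2 2.1.0 and Cufflinks and Cuffdiff 2.1.1. The authors estimated FPKM per replicate with Cufflinks and deposited them with Cuffdiff's 2 group FPKM values per comparison, whose p-values and fold changes were not used. Strand settings: not given in the sources used here. The 22 replicate columns used belong to 10 GEO samples. A further 6 columns were not used, as all 7041 of their features repeat the YAR overexpression values. Neither were 2 group columns of the jhd2Δ and WT comparison in YAR, whose headers name no group.

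Replicate FPKM was scaled by median of ratios, turned into log2(FPKM + 1), filtered at a mean of 1 FPKM and tested with limma 3.58.1 in R 4.3.3 (lmFit, eBayes with trend and robust), two-sided, with Benjamini-Hochberg adjustment over all features tested and calls at an adjusted p under 0.05 and a fold over 1.4. On that scale changes of low genes are understated. The procedure was tested on simulated data with capped, independent noise and changes placed only in features of higher level. That test does not cover the low or the most variable of the 10 genes. Levels are printed as deposited. Replicates are described as replicate cultures, and p-values measure the spread between them. Read depth is recoverable only in the YAR table of jhd2Δ and WT (6.11 to 9.69 in units of 1e6 reads), and elsewhere it is unknown. Genes and lists were chosen with earlier results of these data known. All 10 genes are named, with the list genes that passed a test, the paralogs ECM22, HYP2 and PET9, and the 5 features most like ROX1 and TIR2. Coordinates are RefSeq R64, where 6033 of 6045 shared IDs have the same start and end as the files. No run of 51 bases of the 10 genes, HYP2, PET9 or ECM22 occurs elsewhere in the genome, and 12.9% of runs in TIR1 and 19.9% in TIR4 repeat within the gene. Alternatives were other pseudocounts, filters, scalings and limma options, a replicate block, leaving out each library, and the authors' group values, the last added after the data were seen.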

Additional observations from a re-analysis of the deposited data

Results flagged for a closer look

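The effect of jhd2Δ differed between YAR and YGD, by the limma contrast of both effects, for 3 genes of the lists. PET9 differed by log2 2.29 (SE 0.49, adjusted p = 0.0296), where jhd2Δ was higher than WT by 1.77 in YAR and the difference in YGD was -0.53 (SE 0.34). CYC1 differed by 1.14 (SE 0.21, adjusted p = 0.0161), with 0.96 in YAR and -0.19 in YGD. SUT1 differed by -0.98 (SE 0.23, adjusted p = 0.0357), with -0.82 in YAR and 0.16 in YGD. Over 15 alternatives the adjusted p ran from 0.00194 to 0.127 for PET9, from 0.00630 to 0.267 for CYC1 and from 0.0264 to 0.282 for SUT1, and the call held in 9, 9 and 5 of them. Mating type of WT changed with the medium and cannot be told apart from it. No group held 4 libraries, so none was tested for a library far from the others.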

How the results depend on the processing

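Of the alternative values of single genes, 776 kept their direction and call or, where untested, stayed within the spread between replicates, 65 lost a call, 4 gained one, 36 turned sign and 16 untested ones moved beyond that spread. For untested values a turn of sign was counted only where the main difference was past the threshold. Their other turns of sign are among those that stayed or moved. Of the alternative counts, 83 stayed within 1.5 times, 35 were lower and 10 higher. Those for list genes, for the authors' group values and without replicate 3 of both OE and EV were added after the data were seen. In YAD 1 of the 10 genes was past the threshold with FPKM as deposited, with scaling to coding features, without trend and robust, and with the replicate block, and 1 to 2 with a library left out; all features called numbered 180 with the block and 147 to 373 with a library left out. Replicate numbers did not pair the libraries (same-number correlations -0.105 to 0.162), though in YAD every library correlated best with its own number; the block gave 13 features in YGD, 174 in YAR with 0 of the 10 genes, and 1 in OE. With a library left out the counts were 12 to 38 in YGD (38 without WT replicate 3), 42 to 1166 in YAR (42 without WT replicate 2, 120 without WT replicate 1) with 0 to 1 of the genes, 2 to 216 in OE (216 without EV replicate 2) with 0 to 1, and 78 to 907 for YAR minus YGD (907 without WT replicate 3 in YGD). Without trend and robust YAR had 410; YAR minus YGD had 123 as deposited and 259 with coding features; OE without replicate 3 had 5; and with a minimum of 5 FPKM OE in YAD had 1 gene. Scaling to coding features moved the median of all features by -0.13 in YAD (37 higher and 425 lower, against 104 and 250), 0.12 in YGD, 0.31 in OE and -0.39 in YAR minus YGD (101 and 158, against 293 and 161; 99 and 24 as deposited). With the authors' values, turns included ROX1 to 0.46, UPC2 to 0.21 and AAC3 to -0.088 in YAD, and ROX1 to 1.07 in YGD. In YGD, as deposited and with coding features, ANB1 turned to 0.15 and 0.047, TIR2 to 0.19 and 0.10 and ECM22 to 0.15 and 0.080, and AAC3 to 0.047 as deposited; with a library left out ANB1 ran from -0.50 to 0.70, HEM13 from -0.13 to 1.02, AAC3 from -0.45 to 0.21, TIR1 from -0.0078 to 1.198, TIR2 from -0.23 to 0.20 and ECM22 from -0.12 to 0.050. In YAR, with coding features, HEM13 turned to -0.14 and TIR2 to -0.0096, and with a library left out they ran from -0.0070 to 0.33 and from -0.14 to 0.49. In OE, ECM22 turned to 0.0033 with coding features and HYP2 to 0.067 as deposited and 0.27 with coding features (-0.24 to 0.032 with a library left out). UPC2 turned to 0.16 with coding features. With a library left out in OE, ANB1 ran from -0.68 to 2.16 and TIR3 from -0.31 to 0.98. TIR1 ran from -1.34 to 0.22 and AAC3 from -0.56 to 0.036. For YAR minus YGD, TIR1 turned to 0.0073 with pseudocount 0.1, and TIR2 to -0.017 as deposited and -0.11 with coding features; with a library left out HEM13 ran from -0.85 to 0.29, TIR1 from -1.01 to 0.19 and TIR2 from -0.12 to 0.51. The cause of these changes was not tested. Reads of 0 to 3 per library in YAR limit DAN1, TIR1, TIR3 and TIR4.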
